A study of Mus musculus with 6 samples.

Results

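The nuclear genes for mitochondrial ribosomal proteins were followed in B16F10 mouse melanoma spheroids given BMP2 or PBS. The members were all protein-coding genes whose symbol begins with Mrpl or Mrps and continues with a number, which gave 78 of the 34981 genes in the deposited table. Of these, 51 encode proteins of the large subunit and 26 encode proteins of the small subunit, and the remaining member, Mrps36, was named for the ribosome but is now known as a component of the 2-oxoglutarate dehydrogenase complex. B16F10 is an established, highly metastatic mouse melanoma line, and BMP2 is a secreted ligand of the bone morphogenetic protein family. For each culture, 500 cells were plated in 50 µl of Matrigel, a basement membrane gel, at 7 mg/ml and kept for 10 days. The BMP2 group received the ligand at 100 ng/ml. The other group, titled untreated in the labels, received PBS, the vehicle, and is called PBS here. The experiment was done 3 times, so that batches 1, 2 and 3 each hold 1 BMP2 and 1 PBS culture (n = 3 per group). All groups were this single unmodified line in gel, without other cells, so the values describe melanoma cells in culture and no tumour in an animal.

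Mitochondria keep their own ribosome, which translates the few messenger RNAs encoded in mitochondrial DNA, all for subunits of the respiratory chain and ATP synthase. Its ribosomal RNAs come from mitochondrial DNA, but every one of its proteins is encoded in the nucleus, made in the cytosol and imported. Some of these proteins have counterparts in bacterial ribosomes, and others are specific to mitochondria and replace or extend what was lost of the bacterial RNA. The large subunit (Mrpl genes) joins amino acids, and the small subunit (Mrps genes) reads the messenger RNA. Defects in several members cause combined deficiencies of the respiratory chain in humans.

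The libraries held 27821900 to 36856400 estimated counts. All 7 melanocyte lineage markers (Mlana, Pmel, Tyr, Tyrp1, Dct, Sox10 and Mitf) were above 1 CPM (counts scaled to library size), and their summed level was 28900 to 39100 CPM with BMP2 and 23700 to 26300 CPM with PBS. Markers of other cell types were low. The 6 fibroblast genes summed to 3.12 to 5.31 against 4.38 to 8.52 CPM, and the 4 endothelial genes to 0.724 to 2.02 against 1.02 to 1.76 CPM, with Cdh5 and Tek at 0 in all libraries. The 2 epithelial genes in the table summed to at most 0.0342 against 0.0599 CPM. Over 5 leukocyte genes the sum was 0.899 to 2.91 CPM with BMP2 and 0.299 to 0.976 CPM with PBS, with Adgre1 at 0 in all libraries and Ptprc, the common leukocyte antigen, at most at 0.0976 CPM. Nearly all of that sum was Lyz2, a lysozyme, which was higher with BMP2 in each batch, with a log2 fold change of 1.65 (SE 0.61, edgeR adjusted p 0.839, or 0.131 with the block), and whose part in the results was not tested. The library PBS 1 stood apart, at -79.7 on the first principal component against -16.8 to 55.5 for the others. Its scaling factor, 0.872, was the lowest and its pseudogene counts, 2.81% of the library, the highest, so results are given with and without it where it matters. Leaving out PBS 1 alone keeps BMP2 1, so batch 1 then stands in the BMP2 group only. In bulk RNA, fewer cells of a kind and less RNA per cell cannot be told apart.

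None of the 78 genes passed the test in either direction. All 78 were among the 12929 genes tested, and 0 were called with BMP2 by the edgeR quasi-likelihood test at a Benjamini-Hochberg adjusted p under 0.05, where 0.0464% of all tested genes were called (0.00773% higher and 0.0387% lower). With the batch as a block in the same model, 0 members were called again, against a background of 0.735% (0.371% higher and 0.364% lower). The smallest member adjusted p of edgeR was 0.883 without the block and 0.182 with it, the latter at Mrpl45. At an unadjusted p under 0.05, 0 members passed without the block, where 5.38% of all tested genes did. With the block 3 members passed, Mrpl3, Mrpl45 and Mrps2, against 17.0% of all tested genes.

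The fold changes were small as well as uncalled. The log2 fold changes (BMP2 minus PBS) of the 78 genes ran from -0.48 to 0.50 with a median of 0.00, and 64 lay within 0.25 of 0 in either direction. Over all tested genes the median was 0.01. The SD of the log2 fold changes was 0.18 over the members and 0.57 over all genes, and 100% of members but 80.0% of all genes lay within 0.5 of 0. The 95% interval of the fitted fold change left out a 2-fold change in either direction for 75 members (96.2%), against 55.4% of all tested genes. The exceptions were Mrpl3, Mrpl45 and Mrps2. With the batch as a block the interval left out a 2-fold change for 77 members (98.7%, against 69.4% of all genes), all except Mrpl3, and a 1.5-fold change for 64 (82.1%, against 34.3%). The median level of the members, 37.4 CPM, was above the 21.7 CPM of all tested genes, and their median standard error (SE) was 0.21 against 0.29. The part of the higher level in the narrower spread was not tested. Scaling to the library totals alone, without the trimmed mean of M values (TMM) used throughout, moved the median of all genes to 0.13 and that of the members to 0.13 too, and 64 members lay above 0 where 40 did with TMM. Relative to the median of all genes, the median of the members lay between -0.01 and 0.00 under the 4 scalings tried.

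**Figure D1:**
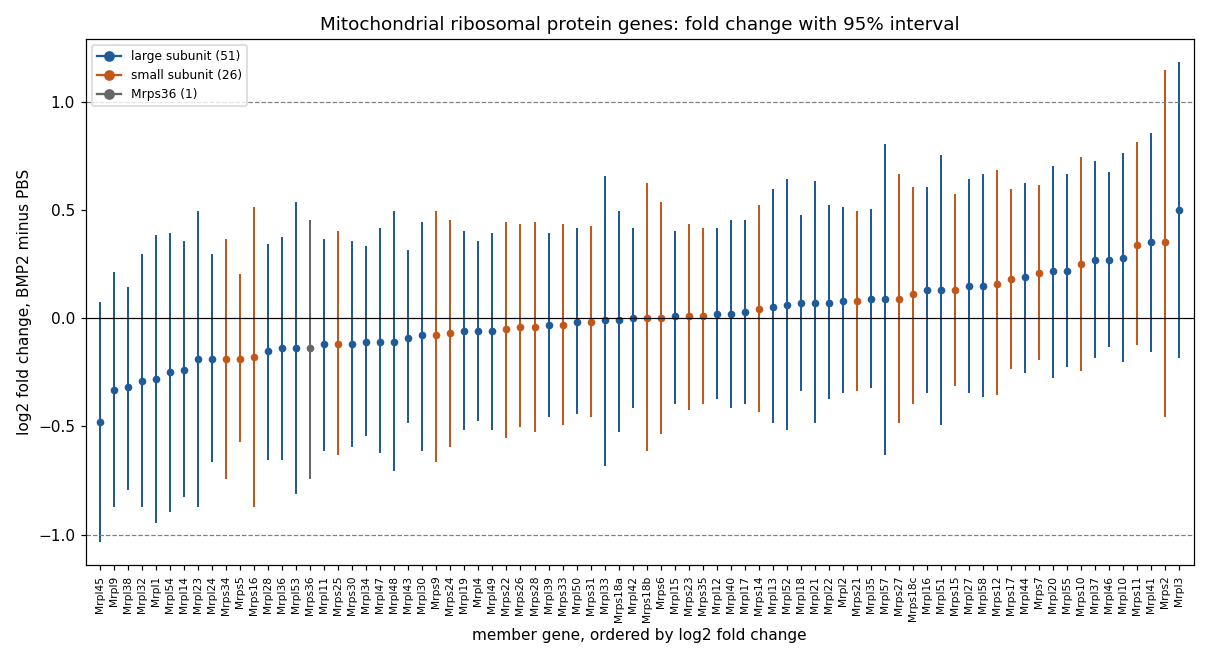
Fitted log2 fold change (BMP2 minus PBS, y axis) of each of the 78 members, ordered along the x axis, with bars for the 95% interval of the edgeR quasi-likelihood fit without the block and colours for the subunit. Every interval spans 0, and those of Mrpl45, Mrps2 and Mrpl3 reach past the dashed lines at a 2-fold change.

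The direction of the members differed between batches. With BMP2, 28 of the 78 genes were higher in batch 1, 46 in batch 2 and 56 in batch 3, and the median log2 difference was -0.16, 0.05 and 0.09 in the 3 batches. Over all tested genes these medians were 0.02, 0.00 and 0.02. The summed level of the 78 genes was 3312, 3116 and 3294 CPM in BMP2 1, 2 and 3 and 3688, 2981 and 3102 CPM in PBS 1, 2 and 3. The BMP2 libraries lay inside the range of the PBS libraries, whose spread came from PBS 1 at the top. The group means were 3241 ± 108 and 3257 ± 378 CPM (SD, n = 3), a ratio of 0.995, and without PBS 1 the ratio was 1.07. Within batches the ratio was 0.898, 1.05 and 1.06. As a share of all counts the members made up 0.291% to 0.358% of a library.

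PBS 1 was the highest of the 6 libraries for 41 of the 78 genes, where it was the highest for 29.7% of all tested genes. The median member lay 0.16 (log2 CPM) above its own mean of the 6 libraries in PBS 1, while the median of all genes lay at 0.00 there. In PBS 2, the lowest library for 27 members, the median member lay at -0.13, against 0.00 for all genes. The share of all genes that were lowest in PBS 2 was not counted. How far a member stood above PBS 2 and PBS 3 in PBS 1 had a Spearman correlation over the 78 genes of -0.06 with transcript length and of -0.11 with GC content. The part of the higher pseudogene share and the low scaling factor of PBS 1 in these levels was not tested. Between batches, the log2 differences of the members had Spearman correlations of 0.34 (batches 1 and 2), 0.31 (1 and 3) and 0.49 (2 and 3), over 78 genes measured in the same libraries.

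**Figure D2:**
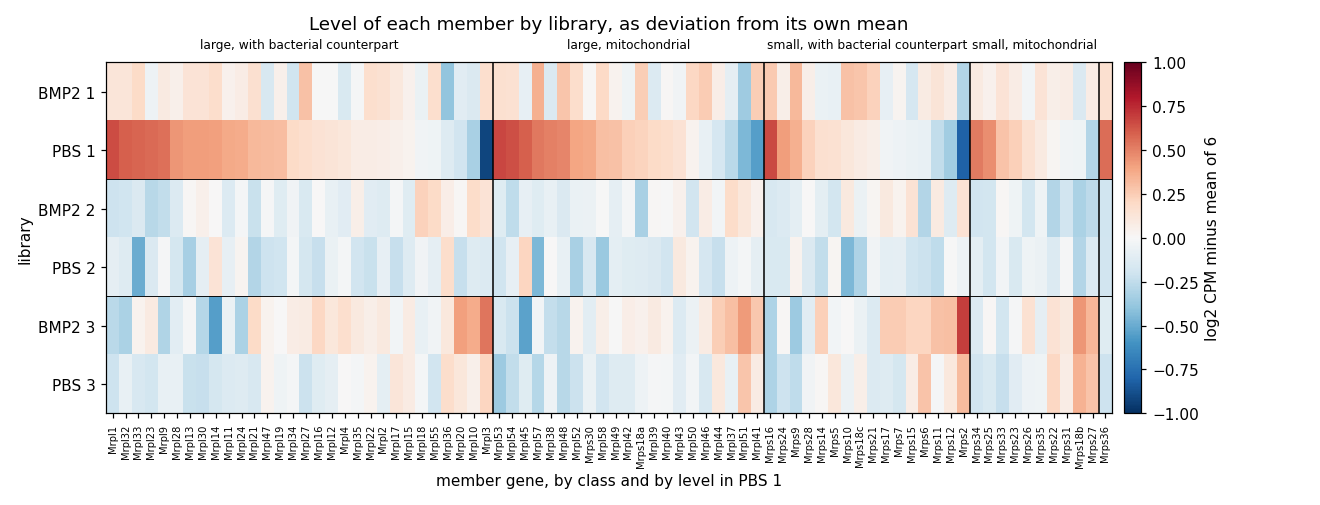
Log2 CPM of each member (x axis) in each library (y axis, PBS under BMP2 within each batch) as the deviation from its own mean over the 6 libraries, with genes grouped by class and ordered by their level in PBS 1. The PBS 1 row is mostly above the mean, with Mrpl3, Mrps2 and Mrpl41 among the exceptions.

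BMP2 was above PBS in each of the batches for 17 of the 78 genes, where this held for 22.8% of all tested genes. It was below PBS in each for 11, against 21.1% of all tested genes, and the other 50 differed in direction between batches. The groups did not overlap for 6 members, 4 of them higher with BMP2 (Mrpl46, Mrpl55, Mrps7 and Mrps11) and 2 lower (Mrpl38 and Mrps5). The background over all tested genes was 6.42% higher and 5.72% lower without overlap.

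The 51 large subunit genes had a median log2 fold change of -0.01, with 12 higher and 9 lower in all 3 batches. Their summed level was 2211 ± 52 CPM with BMP2 and 2234 ± 260 CPM with PBS. The median was 0.00 over the 30 genes with a bacterial counterpart and -0.01 over the 21 specific to mitochondria. The large subunit medians in batches 1, 2 and 3 were -0.21, 0.07 and 0.10.

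Mrpl3 (ENSMUSG00000032563, chr9:105053239-105079888 on GRCm38) encodes the counterpart of bacterial protein L3, which reaches towards the site where peptide bonds form. It had the largest positive difference of the 78 genes. Its level was 48.3, 47.2 and 62.3 CPM in BMP2 1, 2 and 3 and 22.8, 39.1 and 49.8 CPM in PBS 1, 2 and 3. PBS 1 was the lowest library, and the BMP2 libraries of batches 1 and 2 lay below PBS 3, so the groups overlapped. The log2 fold change was 0.50 (SE 0.29, 95% interval -0.18 to 1.18), and with the block 0.55 (SE 0.19, edgeR adjusted p 0.236). It was 0.24 without PBS 1 and 0.77 without PBS 3. An antisense gene model overlaps Mrpl3, and whether the counting used strand is not given, so reads of the 2 models may not be told apart.

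Mrpl45 (ENSMUSG00000018882, chr11:97315716-97329920) encodes the protein at the mouth of the exit tunnel by which the ribosome sits on the inner membrane. It had the largest negative difference. Its level was 74.5, 74.3 and 54.3 CPM with BMP2 and 119, 91.5 and 72.3 CPM with PBS, in batch order. Each BMP2 library lay below the PBS library of its batch, but BMP2 1 and BMP2 2 lay above PBS 3, so the groups overlapped. The log2 fold change was -0.48 (SE 0.24, 95% interval -1.03 to 0.07), and with the block -0.46 (SE 0.13, edgeR adjusted p 0.182). It was -0.28 without PBS 1 and -0.63 without PBS 3. Of its 31-base stretches, 11.6% also occur in other genes.

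The other genes at the tunnel exit lay closer to 0. Over the 6 genes of this site (Mrpl17, Mrpl22, Mrpl23, Mrpl24, Mrpl45 and Mrpl47) the log2 fold changes ran from -0.48 to 0.07 with a median of -0.15. Mrpl47, the counterpart of bacterial L29, was at 12.9, 14.3 and 14.8 CPM with BMP2 and 18, 12.5 and 14.8 CPM with PBS. Its groups overlapped, and its log2 fold change of -0.11 (SE 0.22) became 0.04 without PBS 1. Mrpl22 and Mrpl23 are less certain, with 29.8% and 14% of their 31-base stretches also in other genes. The processed copy Mrpl23-ps1 was assigned 6335 estimated counts over the 6 libraries and Mrpl23 itself 1576, so reads may be divided between them.

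Mrpl10, Mrpl11, Mrpl12, Mrpl53 and Mrpl54 belong to the stalk of the large subunit, which recruits the translation factors, and its base. Their log2 fold changes ran from -0.25 to 0.28, with a median of -0.12. Mrpl12, of which the stalk holds several copies and which also binds the mitochondrial RNA polymerase, was at 85.1, 81.3 and 92.2 CPM with BMP2 and 93.3, 81.5 and 80.3 CPM with PBS. No library of Mrpl12 stood far from the rest, and the log2 fold change was 0.02 (SE 0.17, 95% interval -0.37 to 0.41). Mrpl10, which anchors the stalk, was at 44.4, 55.6 and 63.4 CPM with BMP2 and 39.1, 44.8 and 50.7 CPM with PBS. Both groups of Mrpl10 were lowest in batch 1 and highest in batch 3, and the difference within a batch was 0.18, 0.31 and 0.32 (log2), for a fitted log2 fold change of 0.28 (SE 0.21). It was 0.15 without BMP2 3, 0.18 without PBS 1 and 0.41 without BMP2 1. Mrpl53 shares 84.4% of its 31-base stretches with another gene model, so its value is uncertain.

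The 9 genes of the central protuberance, the domain above the transfer RNA sites, had log2 fold changes from -0.32 to 0.27. Mrpl46, a mitochondrial protein of this domain, was at 43.0, 38.0 and 38.1 CPM with BMP2 and 34.2, 32.1 and 32.3 CPM with PBS. Every BMP2 library of Mrpl46 lay above every PBS library, with a log2 fold change of 0.27 (SE 0.17, 95% interval -0.13 to 0.67) and an edgeR adjusted p of 0.348 with the block. Mrpl38 lay in the other direction, at 61.4, 64.3 and 57.5 CPM with BMP2 and 96.1, 68.1 and 65.4 CPM with PBS. The groups of Mrpl38 did not overlap either, but most of its difference came from PBS 1. The log2 fold change of -0.32 (SE 0.20) was -0.13 without that library. Mrpl55, the third gene of the domain without overlap, had a log2 fold change of 0.22 (SE 0.19).

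Several of the largest remaining differences in the large subunit were smaller without PBS 1. Mrpl41, a mitochondrial protein of this subunit, was at 44.0, 38.2 and 44.7 CPM with BMP2 and 25.4, 34.9 and 39.3 CPM with PBS, and its log2 fold change of 0.35 (SE 0.22) was 0.18 without PBS 1. Mrpl9, of the L9 protein family, was at 39.3, 31.2 and 30 CPM with BMP2 and 54.1, 36.6 and 35.2 CPM with PBS, and its -0.33 (SE 0.23) was -0.11 without that library. In both genes PBS 1 lay outside the range of the other 5 libraries, below it for Mrpl41 and above it for Mrpl9. The fits without PBS 1 keep BMP2 1 without its partner. Within batches 1, 2 and 3 the log2 difference was 0.79, 0.13 and 0.19 for Mrpl41 and -0.46, -0.23 and -0.23 for Mrpl9. Of the 31-base stretches of Mrpl41, 21.1% also occur in other genes.

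Mrpl32, whose precursor is cut by the m-AAA protease of the inner membrane, had a log2 fold change of -0.29 (SE 0.25), or -0.03 without PBS 1. Mrpl1, of the L1 stalk where spent transfer RNAs leave, had -0.28 (SE 0.28), or 0.03 without PBS 1. With the block and without batch 1 in both groups, the values were -0.17 for Mrpl32 and -0.10 for Mrpl1, so both kept their sign. Mrpl14, at the face that meets the small subunit, was at 39.3, 35 and 23.8 CPM with BMP2 and 46.4, 38.3 and 30.8 CPM with PBS. Mrpl14 was lower with BMP2 within each batch, but the batches differed by more than the groups, and the log2 fold change was -0.24 (SE 0.25). It was -0.09 without PBS 1, -0.06 without BMP2 3 and between -0.39 and -0.37 without BMP2 1 or PBS 3. With the block and without batch 1 in both groups, Mrpl14 was at -0.26. Mrpl44, which has a ribonuclease III fold and is mutated in an infantile cardiomyopathy, had a log2 fold change of 0.19 (SE 0.19). It was 0.10 without BMP2 3, 0.12 without PBS 2 and 0.30 without PBS 3.

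**Figure D3:**
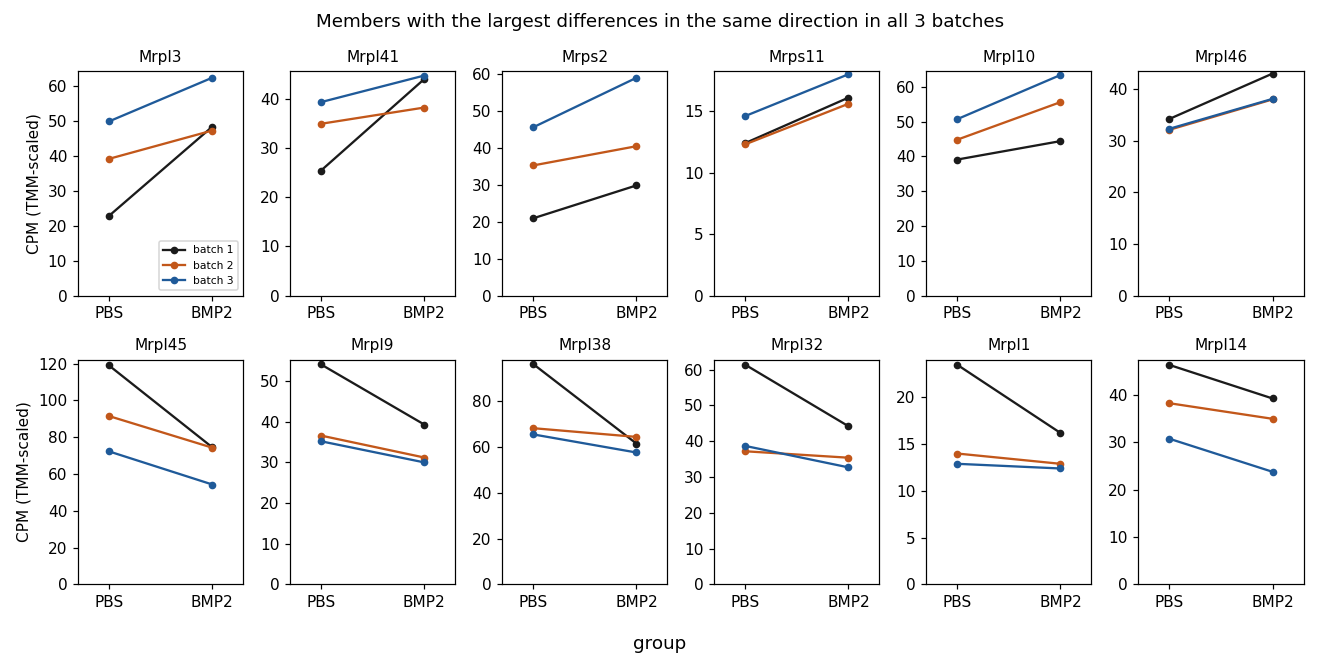
CPM (y axis, from 0) in PBS and BMP2 libraries joined within each batch, for the 6 members with the largest positive and the 6 with the largest negative log2 fold change among those in 1 direction in all 3 batches. Lines for batch 1 are the steepest in Mrpl3, Mrpl41 and Mrpl38, and Mrps11 and Mrpl46 run nearly parallel.

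The 26 small subunit genes had a median log2 fold change of 0.01, with 5 higher and 2 lower in all 3 batches. Their summed level was 991 ± 52 CPM with BMP2 and 980 ± 105 CPM with PBS. The ratio of the summed large to the summed small subunit genes stayed between 2.19 and 2.31 in all 6 libraries. The 16 genes with a bacterial counterpart had a median of 0.09. The 10 specific to mitochondria ran only from -0.19 to 0.09 with a median of -0.02, and 0 of these 10 had the same direction in all 3 batches. Over the 8 genes of the head of the small subunit, the log2 fold changes ran from -0.08 to 0.25.

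Mrps2 (ENSMUSG00000035772, chr2:28468066-28471178), the counterpart of bacterial S2, had the widest interval of the 78 genes. Its level was 29.8, 40.4 and 58.9 CPM with BMP2 and 20.9, 35.2 and 45.5 CPM with PBS. In both groups batch 1 was the lowest and batch 3 the highest, so the groups overlapped, while BMP2 was above PBS within each batch. The log2 fold change was 0.35 (SE 0.35, 95% interval -0.45 to 1.14), or 0.36 (SE 0.14, edgeR adjusted p 0.27) with the block. It was 0.05 without BMP2 3 and 0.62 without PBS 3.

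Mrps11 (ENSMUSG00000030611, chr7:78783119-78792989), of the platform beside the path of the messenger RNA, varied little between batches. Its level was 16.1, 15.6 and 18 CPM with BMP2 and 12.4, 12.3 and 14.6 CPM with PBS. Every BMP2 library lay above every PBS library, and the log2 difference was 0.38, 0.35 and 0.30 in batches 1, 2 and 3. The fitted value was 0.34 (SE 0.20, 95% interval -0.12 to 0.81), with an edgeR adjusted p of 0.326 with the block. The gene lies head to head with Mrpl46, described above, and the starts of the 2 overlapping gene models lie 412 bases apart. Reads from the shared stretch may not be told apart, since strand use is not given. Mrps7, of the head, and Mrps5, at the entry of the messenger RNA, were the other small subunit genes whose groups did not overlap, with log2 fold changes of 0.21 (SE 0.17) and -0.19 (SE 0.17).

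Mrps16 and Mrps22, which are mutated in human disorders of mitochondrial translation, had no difference that held in every batch. Mrps16 was at 38.0, 28.4 and 25.7 CPM with BMP2 and 50.3, 28.6 and 25.7 CPM with PBS. Batches 2 and 3 were level for Mrps16, and its log2 fold change of -0.18 (SE 0.30) rested on batch 1. It was 0.17 without PBS 1, in a fit that keeps BMP2 1 at 38.0 CPM without its partner. The sign change is thus not seen within batches 2 and 3. Mrps22 was at 18.4 ± 2.88 against 19.1 ± 2.27 CPM, a log2 fold change of -0.05 (SE 0.22). Mrps12, the counterpart of the bacterial decoding protein that streptomycin resistance maps to, was at 17.4 ± 2.57 against 15.5 ± 2.46 CPM, a log2 fold change of 0.16 (SE 0.23) that was 0.04 without PBS 1 or BMP2 3 and 0.26 without PBS 3 and 0.25 without BMP2 2.

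Mammals have 3 genes of the S18 family. Only the product of Mrps18c takes the place of bacterial S18, while that of Mrps18b is a further small subunit protein and that of Mrps18a sits in the large subunit. Mrps18a was at 29.8 ± 5.77 against 30.1 ± 4.04 CPM, Mrps18b at 38.8 ± 11.1 against 38.7 ± 8.80 CPM, and Mrps18c at 20.0 ± 2.74 against 18.6 ± 2.69 CPM, BMP2 first (SD, n = 3). The log2 fold changes were -0.01 (SE 0.22), 0.00 (SE 0.27) and 0.11 (SE 0.21), and the groups overlapped in each. Of the 31-base stretches, 0.163%, 16.7% and 32.8% occur in other genes. Mrps30, whose product also belongs to the large subunit despite its name, was at 35.3 ± 1.53 against 38.4 ± 8.01 CPM. Mrps36, outside the ribosome, was at 38.5 ± 5.27 against 42.5 ± 13.7 CPM, with a log2 fold change of -0.14 (SE 0.26). It became 0.15 without PBS 1, in a fit that keeps BMP2 1 without its partner.

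Levels between genes were compared per length, as CPM per kilobase of transcript averaged over the 6 libraries. They ran over 39.8-fold, from 4.08 for Mrps26 to 162 for Mrpl42, with a median of 27.8 and quartiles of 16.1 and 42.4. In each intact ribosome nearly all of these proteins are present once, while the values here are of RNA. Of the members, 9 lay more than 4-fold from the median. The highest were Mrpl42 at 162 (148 to 190 over the libraries), Mrps21 at 144 (130 to 168), Mrps33 at 142 (120 to 172) and Mrpl20 at 112 (94.8 to 147) CPM per kilobase. The ranges of these neighbours overlapped. Of the 31-base stretches of Mrps21 and Mrps33, 14.5% and 15.6% also occur in other genes. At the low end Mrps26, Mrpl47 and Mrpl1 were at 4.08, 4.33 and 4.46 CPM per kilobase, again with overlapping ranges. Mrpl12, which is present in several copies per ribosome, was at 65.1 CPM per kilobase, the eighth highest level. The median was 32.0 over large and 21.3 over small subunit genes. These levels rest on the median length of a gene's basic protein-coding transcripts, 0.44 to 6.07 kilobases, and the annotated length of the low genes Mrps26 (4.28 kilobases) and Mrpl1 (3.43 kilobases) was well above that of Mrpl42 (0.661 kilobases). Of the 9 members more than 4-fold from the median, the high ones had annotated lengths of 0.446 to 0.717 kilobases. The low ones had 2.88 to 4.28 kilobases. The part of annotated length in these levels was not tested.

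**Figure D4:**
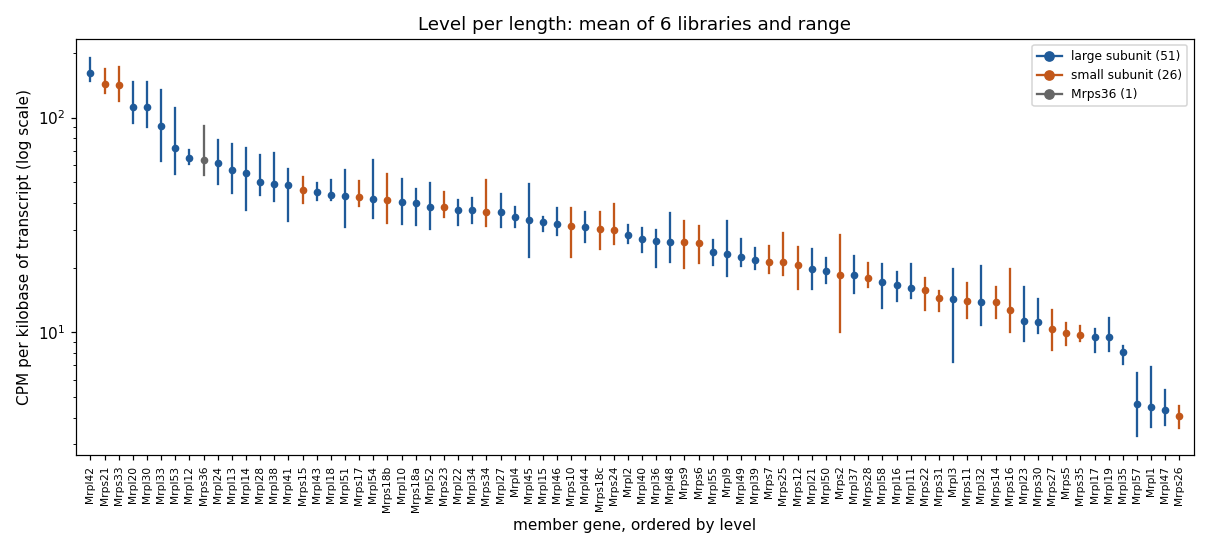
Level of each member (x axis, in order of level) in CPM per kilobase of transcript on a log axis, as the mean of 6 libraries with a bar from the lowest to the highest library. Levels run from 4.08 (Mrps26) to 162 (Mrpl42), and the bars of neighbouring genes overlap except between Mrpl35 and Mrpl57.

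Genes of this family often lie head to head with another gene. Of the 78 members, 33 (42.3%) have a protein-coding gene on the opposite strand that starts within 1000 bases, against 10.8% of the protein-coding genes in the table (2344 of 21713). Some of these neighbours also act in mitochondria. Mrps12 starts 172 bases from Sars2, the mitochondrial seryl-tRNA synthetase, and the log2 fold changes were 0.16 and -0.38. Mrpl36 starts 29 bases from Ndufs6, a complex I subunit (-0.14 and -0.17), and Mrpl43 lies by Twnk, the mitochondrial DNA helicase (-0.09 and 0.05). Mrpl49 starts 59 bases from Fau, which encodes a protein of the cytosolic ribosome, and the log2 fold changes were -0.06 and -0.50. None of these members passed the test.

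Motifs of the factors best known for nuclear genes of mitochondria were counted in RefSeq promoter windows (GRCm38.p6), which reach from 250 bases before to 50 after a start and were given for 69 members in 75 windows. The ETS motif CCGGAAG, bound by GABPA among others, occurred on either strand in 26 member windows (34.7%), against 8.86% of all 32851 windows and 11.6% of those of protein-coding genes. The YY1 motif AAGATGGC occurred in 12 (16%, against 2.75% and 3.05%). The NRF1 motif, GCGCA followed by its reverse complement TGCGC, occurred in 3 (4%, against 0.971% and 1.33%), at Mrpl9, Mrpl32 and Mrpl39, and the E-box CACGTG, bound by MYC among others, in 7 windows of 5 members (9.33%, against 7.15% and 7.84%). Members with and without the ETS motif had median log2 fold changes of 0.05 and -0.02, and those with and without the YY1 motif 0.05 and 0.00. For the E-box the medians were 0.11 (5 members) and 0.00, and for the NRF1 motif -0.29 (3 members) and 0.01. A match describes the letters only and is not a bound site.

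The stretches below show the motifs at members described above, each read on the strand of its gene with only the motif it is shown for in capitals. The ETS motif is shown in 6 genes, Mrpl3 (chr9:105053238-105053267), Mrps22 (chr9:98601672-98601701), Mrps12 (chr7:28741802-28741831), Mrps18a (chr17:46110967-46110996), Mrps18b (chr17:35916391-35916420) and Mrps18c (chr5:100798592-100798621), so that the highest positive difference and the S18 family can be set side by side. In Mrps18b and Mrps18c it lies on the opposite strand and reads CTTCCGG. The Mrps18c stretch also holds the E-box CACGTG, left in lower case.
Mrpl3: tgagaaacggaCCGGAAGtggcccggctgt
Mrps22: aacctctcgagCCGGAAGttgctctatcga
Mrps12: aaggaggaaccCCGGAAGgggctggaggta
Mrps18a: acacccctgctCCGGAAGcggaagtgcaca
Mrps18b: tgtcccgagcatgcgcagtcgctCTTCCGG
Mrps18c: gggtcacgtgaCTTCCGGcccgggaagcgc

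The YY1 motif is shown at Mrps11 (chr7:78783013-78783042, on the opposite strand) and at Mrps18a (chr17:46111004-46111033). The NRF1 motif is shown at Mrpl9 (chr3:94443298-94443327) and Mrpl32 (chr13:14613105-14613134), both lower with BMP2 in all 3 batches. Mrpl39, the other member with the NRF1 motif, is not shown. Its log2 fold change was -0.03, and its direction differed between batches. Mrpl32 also holds the YY1 motif. A link between motif and direction was not tested.
Mrps11: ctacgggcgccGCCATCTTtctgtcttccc
Mrps18a: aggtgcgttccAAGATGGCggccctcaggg
Mrpl9: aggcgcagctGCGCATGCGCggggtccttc
Mrpl32: tttgacccttGCGCATGCGCaagaggggcc

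Mrpl45, with the largest negative difference, held no exact match to any of the 4 motifs in its window. The 150 bases before its start (chr11:97315566-97315715) are given for comparison. They do hold gcgcacgcgc and gcgcaggcgc, which each differ from the NRF1 letters at a single base. Near matches were not counted, so the stretch is not shown to lack a site.
Mrpl45: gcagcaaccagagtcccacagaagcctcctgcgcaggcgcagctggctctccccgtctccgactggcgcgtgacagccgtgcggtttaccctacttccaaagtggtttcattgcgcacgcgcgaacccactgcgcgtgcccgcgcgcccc

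Other genes of mitochondrial translation were looked at by role, and 0 were called in any list by edgeR, with or without the block. Of 5 ribosomal proteins that carry other names, Dap3, a GTP-binding protein of the small subunit, averaged 33.3 ± 6.28 with BMP2 against 41.6 ± 7.54 CPM with PBS, a log2 fold change of -0.32 (SE 0.22). Ptcd3, another protein of that subunit, was at 77.9 ± 20.6 against 56.3 ± 11.2 CPM (0.47, SE 0.25), and Gadd45gip1, of the large subunit, at 33.7 ± 8.73 against 41.8 ± 15.4 CPM (-0.31, SE 0.32).

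The 32 assembly factors had a median log2 fold change of 0.13, with 11 higher and 4 lower in all 3 batches. Of the 32, 4 lay higher and 2 lower without overlap of the groups, against 6.42% and 5.72% of all tested genes. Trub2, a pseudouridine synthase of mitochondrial RNA, was at 39.7, 25.5 and 41.1 CPM with BMP2 and 19.3, 18.7 and 27.7 CPM with PBS, a log2 fold change of 0.69 (SE 0.26, edgeR adjusted p 0.15 with the block). Only BMP2 2, below PBS 3, kept the groups of Trub2 from standing apart. Ndufab1, the mitochondrial acyl carrier protein, which joins an assembly module of the large subunit and complex I, was at 37.9, 35.6 and 35.8 CPM with BMP2 and 68.7, 46.4 and 53.1 CPM with PBS. The groups of Ndufab1 did not overlap, and the log2 fold change was -0.62 (SE 0.20, edgeR adjusted p 0.75, or 0.142 with the block). Mpv17l2, an inner membrane protein tied to ribosome assembly, had 0.53 (SE 0.21), and its groups did not overlap either.

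Among 15 translation factors the median was 0.06. Mtif3, an initiation factor, had a log2 fold change of 0.65 (SE 0.34), Tufm, the elongation factor that carries transfer RNAs, was at 51.1 ± 11.3 against 69.4 ± 1.75 CPM (-0.44, SE 0.20), and Oxa1l, the insertase that receives new chains, had -0.37 (SE 0.21). Batch 1 gave the largest difference for Mtif3 (1.71, 0.21 and 0.36 in batches 1, 2 and 3) and for Oxa1l (-0.84, -0.24 and -0.01). The 20 mitochondrial tRNA ligases had a median of 0.10, led by Ears2, Rars2 and Hars2 at 0.71 (SE 0.41), 0.65 (SE 0.41) and 0.56 (SE 0.30). Batch 1 gave the largest difference in each. By batch these were 1.09, 0.17 and 0.88 for Ears2, 1.23, 0.43 and 0.54 for Rars2, and 1.19, 0.21 and 0.08 for Hars2. Ears2 was low, at 1.43 to 5.17 CPM. The 9 genes of mitochondrial DNA transcription had a median of 0.08.

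The messenger RNAs that this ribosome translates made up 4.12% to 4.62% of the counts in every library. Over the 13 of them the median log2 fold change was 0.13, from -0.55 for mt-Atp6 (SE 0.44) to 0.47 for mt-Nd4l (SE 0.26). For mt-Atp6 the BMP2 2 library stood apart, at 1690 CPM against 5120 to 7540 CPM in the other 5.

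Of 9 regulators of the genes of mitochondria, Myc, a transcription factor that promotes ribosome and mitochondrial biogenesis, had the largest difference. Its level was 14.2, 13.9 and 19.6 CPM with BMP2 and 41.6, 33.0 and 25.8 CPM with PBS. The groups of Myc did not overlap, and the log2 fold change was -1.07 (SE 0.25), with an edgeR adjusted p of 0.387 without and 0.125 with the block, so it was not called. Nrf1 was at 39.3 ± 4.59 against 48.8 ± 10.4 CPM (-0.31, SE 0.22) and Yy1 at 94.1 ± 12.6 against 113 ± 16.6 CPM (-0.27, SE 0.20), while Gabpa was at 44.9 ± 5.35 against 38.9 ± 10.4 CPM (0.21, SE 0.24).

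The gene groups most like the members lay lower in the same fit. The 79 tested genes of the cytosolic ribosome had a median log2 fold change of -0.41, with batch medians of -0.65, -0.21 and -0.19, and 61 of them were lower and 5 higher in all 3 batches. Without the block 0 were called. With it 1 rose, Rpl3, named after its value was seen, by a log2 fold change of 1.53 (edgeR adjusted p 0.0379). The 74 nuclear genes of the respiratory chain had a median of -0.21 (-0.44, -0.03 and -0.10 by batch), with 36 lower and 1 higher in all 3 batches, and 0 were called in either fit. The corresponding values of the members were 0.00 (-0.16, 0.05 and 0.09), with 11 lower and 17 higher. In each of the 3 batches the members' median was the highest of the 3 groups, and in each group batch 1 gave the lowest. These are descriptions of the lists, and the difference between the groups of genes was not tested.

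**Figure D5:**
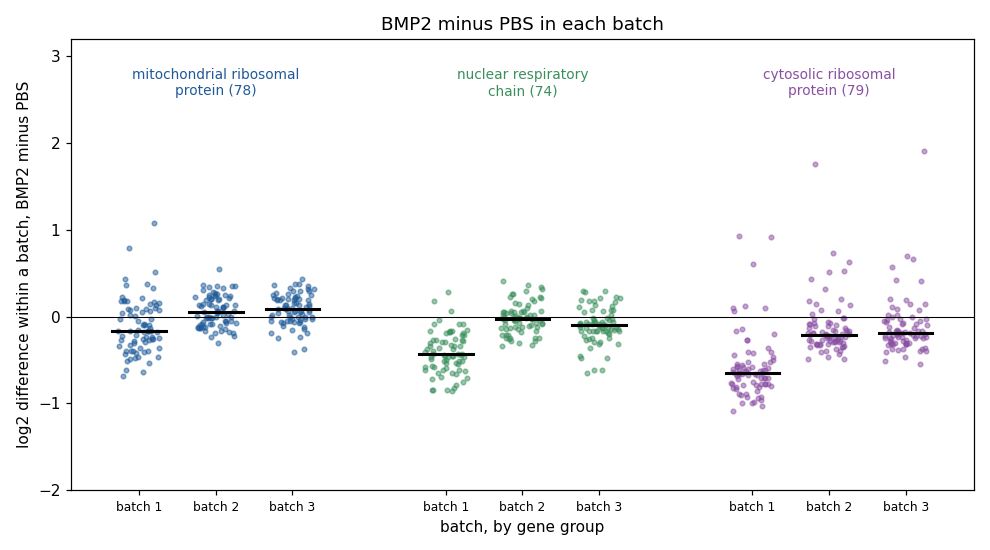
Log2 difference (BMP2 minus PBS, y axis) within each batch for every gene of the 78 members, 74 nuclear respiratory chain genes and 79 cytosolic ribosomal protein genes, with a bar at the median. The members' medians are -0.16, 0.05 and 0.09, and batch 1 is the lowest in each group of genes.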

How the data were processed

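RNA of 6 cultures was sequenced from Illumina TruSeq libraries, per the labels' protocols. The authors deposited estimated counts per gene, from kallisto 0.44.0 on GRCm38.p6 (the submitters' processing notes). The annotation release, the step from transcripts to genes and any use of strand remain not given in the sources used here. Reads that match several transcripts are shared out by kallisto, so genes with close copies can exchange reads. Of the members, 18 share at least 10% of their 31-base stretches with other genes and 28 overlap an exon of an antisense gene. Symbols and positions came from GENCODE M21 (34679 of 34981 genes matched, 302 not). A further 5 pseudogene models have symbols like those of members and were left out.

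Counts were rounded, filtered with filterByExpr, scaled by trimmed means (TMM) and tested by edgeR 4.0.16 (quasi-likelihood, R 4.3.3), with treatment alone in the model (4 residual degrees of freedom) and Benjamini-Hochberg adjustment over all 12929 genes tested. By the labels a replicate number is a batch, and the deviations of libraries from their group mean had correlations of 0.51, 0.25 and 0.52 within batches, against -0.51 to 0.03 between them, so the model with batch as a block (2 residual degrees of freedom) is given too. Intervals are at 95% and follow the quasi-likelihood test. Without the block the p-values measure the spread between these 3 cultures per group. With it they measure the spread of the BMP2 minus PBS difference between the 3 batches. Differences within a batch and deviations use log2 CPM with a prior count of 2. DESeq2 1.42.0, limma 3.58.1 and Python 3.11.15 served for alternatives and sequences. The scripts were tested on simulated data. The value of 1 marker gene is not reported here.

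The members and gene lists, and the rules for naming genes, were chosen with earlier results of these data known. Named were the 6 largest positive and 6 largest negative differences in 1 direction in all 3 batches, the 4 highest and 3 lowest levels per length, 12 further members, and up to 3 genes per pathway list by unadjusted p. The other members of the stalk and tunnel exit, Mrpl55, Mrps5, Mrps7, Gabpa, Lyz2, Ptprc and the head-to-head neighbours were named after their values were seen.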

Additional observations from a re-analysis of the deposited data

How the results depend on the processing

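In all 19 settings, 0 of the 78 members were called, with the smallest adjusted p of a member between 0.0843 (DESeq2 with the replicate block, Mrpl45) and 1, and adding the block changed no member's call. The genes called over the whole table numbered 6 as reported, 95 with the replicate block, 35 with no filter on low counts, 130 by the Wald test of DESeq2, 653 by DESeq2 with the block and 116 by quantile normalization and limma with the block, the last 2 settings added after the data were seen. They numbered 2 to 10 with 1 library left out, and 531, 27 and 218 with the block without batch 1, 2 or 3. The cause was not tested. With 1 library left out the median log2 fold change ran from -0.063 to 0.093 over the members, -0.08 to 0.093 over the large and -0.053 to 0.102 over the small subunit. The ratio of summed levels ran from 0.955 to 1.07, and was 1.09 without TMM, whose factors set this shift by construction. Over the 60 members under 10% shared 31-base stretches, the median was -0.01.

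Of the named members' values under other settings, 455 kept their direction and 49 changed sign, none of them called. Not counting left-out libraries, these were Mrpl42 (0.00 at a mean of 100 counts and in DESeq2 with the block, -0.01 with DESeq2 size factors and its Wald test), Mrps18a (0.00 with no filter), Mrps18b (-0.01 with the replicate block, with size factors and in the Wald test, 0.00 at a mean of 100 counts, -0.02 in DESeq2 with the block) and Mrps33 (0.03 with quantile normalization, with or without the block). Leaving out 1 library gave -0.43 to 0.03 for Mrpl1, -0.03 to 0.09 for Mrpl12, -0.06 to 0.12 for Mrpl42, -0.22 to 0.04 for Mrpl47, -0.36 to 0.17 for Mrps16, -0.15 to 0.12 for Mrps18a, -0.26 to 0.20 for Mrps18b, -0.01 to 0.17 for Mrps18c, -0.02 to 0.16 for Mrps21, -0.15 to 0.06 for Mrps22, -0.13 to 0.03 for Mrps26, -0.22 to 0.06 for Mrps30, -0.14 to 0.11 for Mrps33 and -0.27 to 0.15 for Mrps36. It gave 0.04 to 0.34 for Mrpl20, which kept its sign. With the block, the sign changed without batch 1 for Mrpl47 (0.09), Mrps26 (0.02), Mrps30 (0.02), Mrps33 (0.04) and Mrps36 (0.03), without batch 2 for Mrpl42 (-0.03), Mrps18a (0.06) and Mrps26 (0.01), and without batch 3 for Mrpl12 (-0.07), Mrpl42 (-0.08) and Mrps18b (-0.06).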
